A study of Mus musculus with 16 samples.

Results

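The transcripts of 36 genes that copy DNA, supply its building blocks and mend it by homologous recombination were followed in tumors before and after chemotherapy. The genes were chosen by name and function, with earlier results of these data known. All 36 were found among the 17426 genes measured in both the table of liver tumors and the table of subcutaneous tumors. They fell into 6 functional classes, with 6 subunits of the MCM helicase (Mcm2 to Mcm7), 6 genes of the sliding clamp and its loader (Pcna, Rfc1 to Rfc5) and 4 genes of the polymerases (Pola1, Prim1, Pole, Pold1). A further 8 genes act in origin licensing and firing (Orc1, Orc6, Cdc6, Cdt1, Mcm10, Cdc45, Gins1, Gins2), 4 in nucleotide supply (Rrm1, Rrm2, Tyms, Tk1) and 8 in repair and the S phase checkpoint (Brca1, Brca2, Rad54l, Exo1, Msh6, Fancd2, Blm, Chek1).

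RNA sequencing of poly(A) RNA covered 16 tumor libraries in 4 groups. The groups were 5 liver tumors after paclitaxel (post_Liver), 5 liver tumors without it (pre_Liver), 3 mammary fat pad tumors after paclitaxel (post_SC) and 3 fat pad tumors without it (pre_SC), and the submitters call the fat pad tumors subcutaneous. All were grown from 4T1, a mouse mammary carcinoma line that models triple-negative breast cancer, in wild-type female BALB/c mice aged 6 weeks, with 200000 cells placed under the liver capsule or 400000 cells in the fat pad. Site and number of implanted cells therefore cannot be told apart. Tumor growth is given as 15 days for both sites. Treated mice were dosed with paclitaxel at 10 mg/kg into the peritoneum, 5 doses per week over 2 weeks, while controls got PBS. Paclitaxel is a taxane that stabilises microtubules and arrests cells in mitosis. The labels do not say whether the pre tumors were PBS controls of the same age or were taken before dosing, so treatment and tumor age cannot be told apart. They also do not say that each library came from its own mouse, and the p-values therefore measure the spread between these libraries. Tumors were digested to cell suspensions and frozen before RNA was made, so host cells are present beside the carcinoma cells.

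Origins of replication are licensed in G1 phase, when the origin recognition complex with CDC6 and CDT1 loads the MCM ring onto DNA, and they fire in S phase, when CDC45 and the GINS complex bind MCM to form the working helicase. Polymerase alpha with primase starts each new strand, the RFC loader sets the PCNA clamp, and polymerases delta and epsilon then extend it from deoxynucleotides made by ribonucleotide reductase, thymidylate synthase and thymidine kinase. Homologous recombination uses the sister copy to mend breaks and stalled forks, and many genes of all these steps are transcribed toward S phase under E2F transcription factors.

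Levels per library are given as TPM, a count of transcripts corrected for their length that sums to 1000000 over the 17426 shared genes in each library, and are set here across tables that the authors normalized separately. The deposited values hold no read counts, so the depth of each library is unknown. The liver libraries differed widely in liver RNA, with summed TPM of 19 hepatocyte genes of 3595 to 89124 in post_Liver and 34680.1 to 158142 in pre_Liver, against 292 to 408 in post_SC and 394 to 644 in pre_SC. Summed TPM of 12 carcinoma epithelium genes ran from 1479 to 4754 in post_Liver and from 852 to 3670.0 in pre_Liver, against 5575 to 6463 in post_SC and 5575 to 6137 in pre_SC. Libraries pre_Liver 4 and 5 stood apart, with the highest hepatocyte and the lowest epithelium sums of the 16. In the deposited values of untreated tumors these 2 libraries carry their own constant per gene, read here as a second batch that holds no pre_SC library. No label names a batch, and the batch of the treated libraries is unknown. Fewer tumor cells and less RNA of a gene per cell cannot be told apart in any result on such bulk samples.

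The replication genes are named from textbook function, and Mcm2 and Pcna, their usual marks of dividing cells, were measured in every library. Mcm2, a subunit of the MCM ring, stood at 64.1, 42.4, 41.8, 26.4 and 33.3 TPM in the post_Liver libraries, in the order of their numbers, and at 30.6, 51.5, 22.2, 6.57 and 10.9 TPM in the pre_Liver libraries. In fat pad tumors Mcm2 stood at 44.9, 29.4 and 29.5 TPM in post_SC and at 46.6, 42.9 and 39.2 TPM in pre_SC. The groups overlapped at both sites, and pre_Liver 4 and 5 were the lowest of all 16 libraries. Pcna, the clamp that holds polymerases on DNA, was the highest of the 36 genes in all 16 libraries, at 303, 197, 203, 128 and 159.7 TPM in post_Liver and 173, 260.2, 123, 67.03 and 72.97 TPM in pre_Liver. Its values in fat pad tumors were 246, 179 and 137 TPM in post_SC and 263, 238 and 239 TPM in pre_SC. The lowest gene was Fancd2 in 9 libraries, Orc1 in 4, Brca2 in 2 and Exo1 in 1. Across the 10 liver libraries the ratio of the highest to the lowest level was 6.95-fold in the median gene and spanned 3.15-fold (Mcm10) to 29.95-fold (Chek1, the kinase of the replication checkpoint). Across the 6 fat pad libraries that ratio was 1.89-fold in the median gene and spanned 1.32-fold to 3.77-fold. Most genes were high or low in the same libraries, as the map of all 36 genes shows, with post_Liver 1 the highest post_Liver library for 32 of 36 genes, pre_Liver 2 the highest pre_Liver library for 35, and pre_Liver 4 the lowest liver library for 32.

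**Figure D1:**
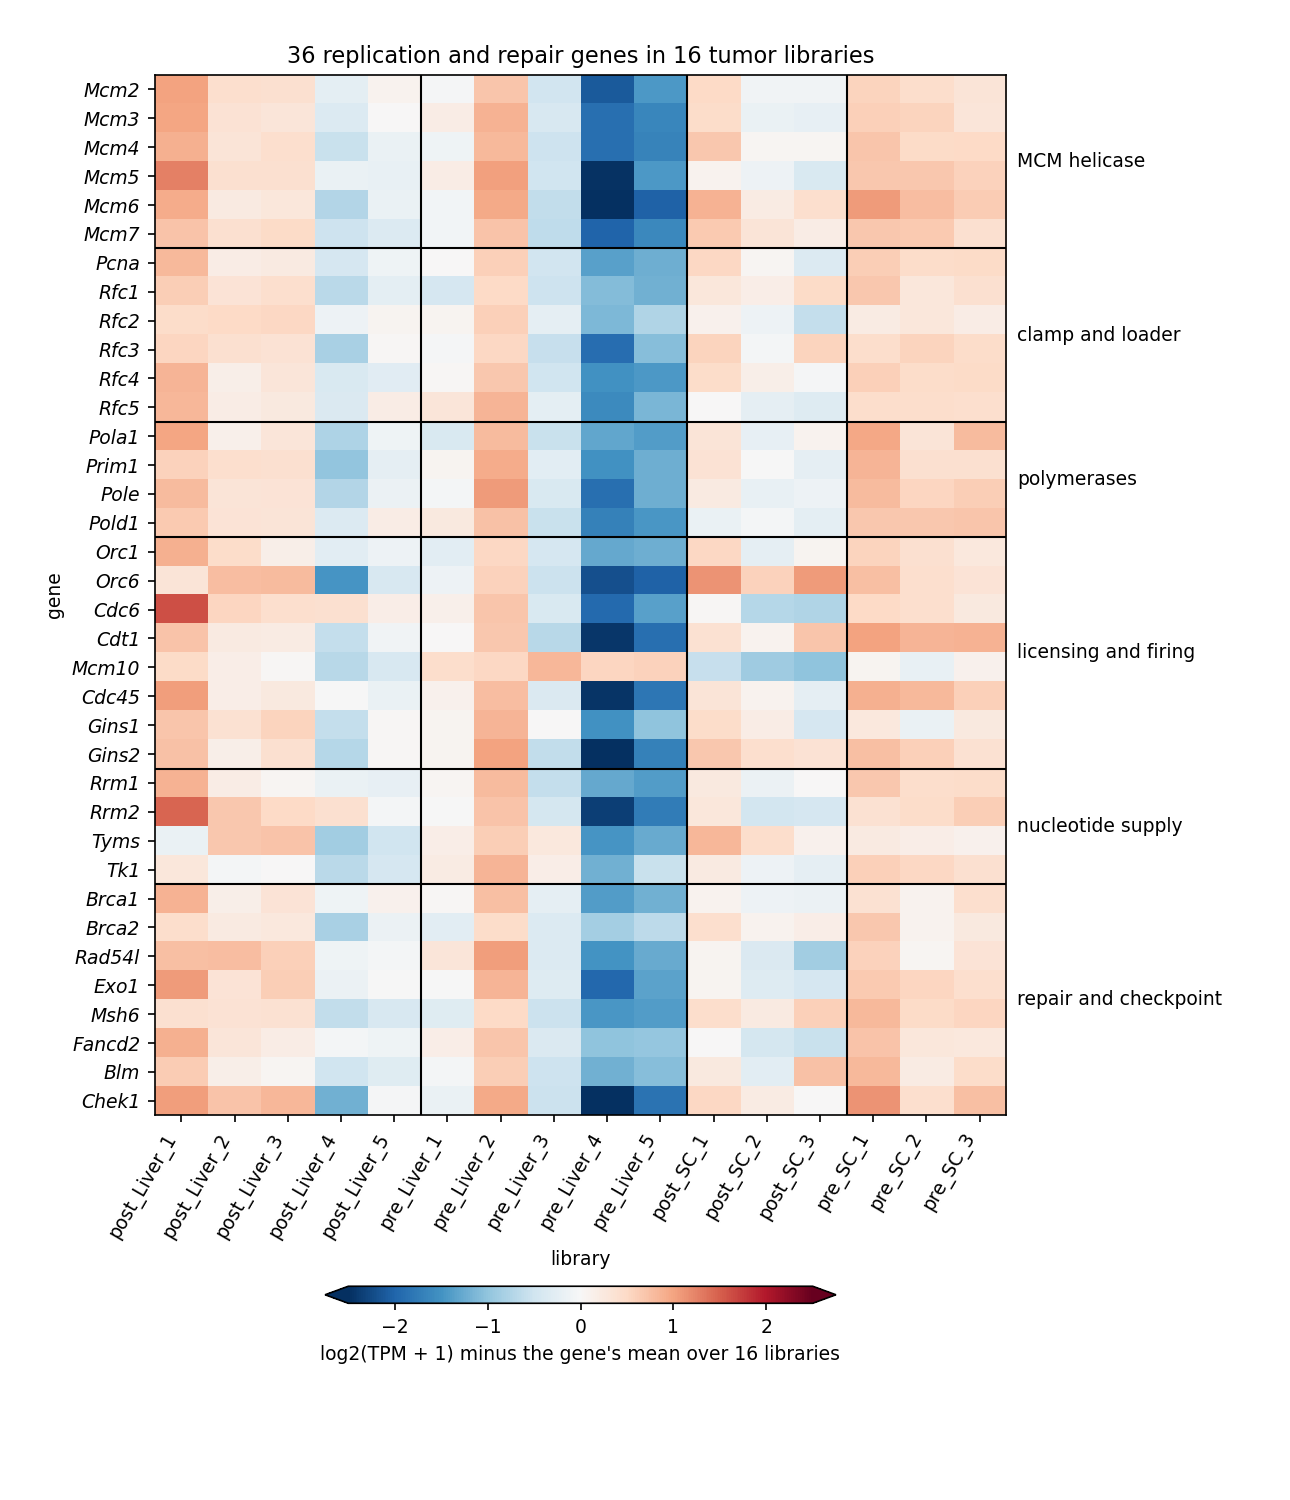
Level of each of the 36 genes (rows, by class) in each of the 16 libraries (columns, by group), as log2(TPM + 1) minus the gene's mean over all 16 libraries, on a scale limited to 2.5 on either side. Columns pre_Liver 4 and 5 are blue for nearly every gene and Mcm10 is the exception, while post_Liver 1 and pre_Liver 2 are red for most genes.

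The promoters of 4 genes are shown because these genes had the smallest sums of their ranks by limma p over both treatment responses and the site comparison, and because most members were high or low in the same libraries. Sequences are from RefSeq (GRCm38.p6), each from 250 bases before to 50 bases after the start of the gene, and capitals mark a match to an E2F-type motif. Pold1 (chr7:44548766-44549065, minus strand) encodes the catalytic subunit of polymerase delta, Cdt1 (chr8:122567765-122568064, plus strand) and Cdc45 (chr16:18811923-18812222, minus strand) act in licensing and firing, and Mcm10 (chr2:5012742-5013041, minus strand) encodes a scaffold needed when the helicase is activated.
Pold1: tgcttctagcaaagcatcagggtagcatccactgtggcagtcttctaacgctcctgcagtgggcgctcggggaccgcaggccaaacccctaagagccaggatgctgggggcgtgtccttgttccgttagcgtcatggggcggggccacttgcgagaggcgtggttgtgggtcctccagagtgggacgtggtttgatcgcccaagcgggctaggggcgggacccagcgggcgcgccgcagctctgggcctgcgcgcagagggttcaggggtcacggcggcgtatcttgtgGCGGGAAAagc
Cdt1: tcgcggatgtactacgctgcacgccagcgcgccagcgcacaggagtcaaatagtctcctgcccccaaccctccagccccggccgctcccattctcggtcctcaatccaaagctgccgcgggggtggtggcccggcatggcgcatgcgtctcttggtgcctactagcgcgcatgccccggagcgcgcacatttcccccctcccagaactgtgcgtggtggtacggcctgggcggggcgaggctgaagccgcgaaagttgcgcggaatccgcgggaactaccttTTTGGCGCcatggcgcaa
Cdc45: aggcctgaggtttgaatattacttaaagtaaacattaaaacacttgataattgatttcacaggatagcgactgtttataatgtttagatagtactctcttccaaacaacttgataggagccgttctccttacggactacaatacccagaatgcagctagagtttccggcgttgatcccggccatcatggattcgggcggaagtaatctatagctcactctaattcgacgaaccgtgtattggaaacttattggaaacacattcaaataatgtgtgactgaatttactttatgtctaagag
Mcm10: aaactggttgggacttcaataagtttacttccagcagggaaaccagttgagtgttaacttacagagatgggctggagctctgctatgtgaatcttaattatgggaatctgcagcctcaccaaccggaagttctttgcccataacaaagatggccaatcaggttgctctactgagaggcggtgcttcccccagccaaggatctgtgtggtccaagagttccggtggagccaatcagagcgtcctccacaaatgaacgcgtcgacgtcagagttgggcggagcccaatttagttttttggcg

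The motifs searched on both strands were TTTCCCGC, TTTCGCGC, TTTGCCGC and TTTGGCGC (E2F-type), CCAAT (the CCAAT box) and TTTGAA (the cell cycle homology region, CHR), and matches of the E2F-type motifs can overlap each other. Of the 36 genes, 29 had a RefSeq promoter in the table used, and 12 of these 29 (41.4%) held an E2F-type motif, against 704 of 27025 genes (2.6%) with a promoter of the same length. A CCAAT box was present in 20 of the 29 (69.0%) and in 41.1% of all genes, and the CHR motif in 2 of the 29 (6.9%) and in 20.2% of all genes. Among the 4 promoters shown, Pold1 and Cdt1 each hold 1 E2F-type match, which begins 39 and 32 bases after the start, Cdc45 holds 2 CCAAT boxes and 2 CHR matches, and Mcm10 holds 3 CCAAT boxes. These matches describe the letters of the windows and are no measure of binding.

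The first comparison asked how tumors of the fat pad responded to paclitaxel. Replication genes stood lower in post_SC than in pre_SC, with 34 of 36 log2 differences below 0, against 52.7% of all 13366 genes tested. Of the 36 genes, 4 fell (limma adjusted p under 0.05, adjusted over all genes tested) and none rose, while limma called 6.97% of all genes tested, 4.29% lower and 2.68% higher. The 4 were Pold1 (chr7:44532746-44548849), Mcm5 (chr8:75109569-75128439), Rfc5 (chr5:117378103-117389047) and Mcm10 (chr2:4989714-5012791, all GRCm38), 1 each of the polymerases, the helicase, the clamp loader and the firing factors. The median log2 difference of the 36 was −0.45, against −0.03 over all genes tested, and 18 of the 36 were lower at an unadjusted p under 0.05, against 15.2% of all genes. The libraries did not overlap for 17 of the 36, all lower in post_SC, against 18.7% of all genes.

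In the MCM helicase, Mcm5 stood at 46.7, 40.1 and 33.5 TPM in the post_SC libraries and at 70.6, 70.5 and 65.7 TPM in the pre_SC libraries. Every post_SC library was below every pre_SC library, a log2 difference of −0.78 ± 0.14 (SE, adjusted p = 0.0274 by limma). The other 5 subunits were below 0 without a call, with estimates of −0.46 ± 0.20 for Mcm3, −0.33 ± 0.19 for Mcm6, −0.33 ± 0.19 for Mcm2, −0.30 ± 0.19 for Mcm4 and −0.18 ± 0.15 for Mcm7 (SE). Mcm7, whose product sits in the same ring, stood at 119, 93.5 and 85.6 TPM in post_SC and 119.6, 118 and 99.1 TPM in pre_SC, and post_SC 1 lay within the range of pre_SC.

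Among the clamp and loader genes, Rfc5, a small subunit of the clamp loader, stood at 32.7, 27.5 and 25.6 TPM in post_SC and at 44.4, 44.4 and 43.9 TPM in pre_SC. It fell by 0.62 ± 0.13 (log2, SE, adjusted p = 0.0366 by limma), with pre_SC libraries close together and all post_SC libraries below them. Pcna had a log2 difference of −0.44 ± 0.20 (SE, adjusted p = 0.204 by limma), with post_SC 1 inside the pre_SC range. Rfc2 stood at 66.2, 56.5 and 40.3 TPM in post_SC and 71.01, 75.2 and 70.3 TPM in pre_SC, without overlap, a log2 difference of −0.43 ± 0.18 (SE, adjusted p = 0.176 by limma). Rfc1, the large loader subunit, and Rfc3 were nearest to 0, at −0.15 ± 0.15 and −0.13 ± 0.18 (SE).

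All 4 polymerase genes were lower in every post_SC library than in every pre_SC library. Pold1 stood at 16.9, 18.3 and 16.02 TPM in post_SC and at 30.9, 31.01 and 31.4 TPM in pre_SC, with a spread between libraries far below the gap. It fell by 0.83 ± 0.12 (log2, SE, adjusted p = 0.0168 by limma). Pole, the catalytic subunit of polymerase epsilon, had a log2 difference of −0.67 ± 0.18 (SE, adjusted p = 0.0691 by limma). Pola1, that of polymerase alpha, stood at 11.3, 7.57 and 9.46 TPM in post_SC and at 18.4, 11.4 and 16.02 TPM in pre_SC, a log2 difference of −0.63 ± 0.22 (SE, adjusted p = 0.126 by limma), and the primase gene Prim1 had −0.51 ± 0.20 (SE, adjusted p = 0.161 by limma).

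The 8 licensing and firing genes were the least uniform. Mcm10 stood at 8.08, 6.32 and 5.77 TPM in post_SC and at 13.2, 11.02 and 13.7 TPM in pre_SC, without overlap, and fell by 0.83 ± 0.18 (log2, SE, adjusted p = 0.0411 by limma). Cdc6, which helps load the ring, had the most negative estimate of the 36, −0.87 ± 0.25 (SE, adjusted p = 0.0731 by limma), and Cdc45 had −0.70 ± 0.18 (SE, adjusted p = 0.0588 by limma). Cdt1, the partner of CDC6 in loading, stood at 54.7, 44.2 and 67.9 TPM in post_SC and 84.7, 76.2 and 76.9 TPM in pre_SC, a log2 difference of −0.52 ± 0.16 (SE, adjusted p = 0.0956 by limma). Orc6, the smallest subunit of the origin recognition complex, went against the rest, at 71.7, 48.4 and 68.9 TPM in post_SC and 55.4, 43.8 and 41.3 TPM in pre_SC. Its log2 difference of 0.41 ± 0.19 (SE, adjusted p = 0.205 by limma) was not called and post_SC 2 lay within the pre_SC range. Gins1 and Gins2, of the GINS complex, were near 0, at −0.04 ± 0.25 and −0.09 ± 0.15 (SE).

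In nucleotide supply, thymidine kinase (Tk1) had the smallest p of its class and stood at 78.1, 61.6 and 56.95 TPM in post_SC and 101, 96.7 and 88.8 TPM in pre_SC, without overlap, a log2 difference of −0.55 ± 0.14 (SE, adjusted p = 0.0626 by limma). The subunits of ribonucleotide reductase had log2 differences of −0.49 ± 0.15 (SE, adjusted p = 0.0824 by limma) for Rrm1 and −0.68 ± 0.21 (SE, adjusted p = 0.0926 by limma) for Rrm2. Rrm1 stood at 38.9, 29.3 and 32.7 TPM in post_SC and 52.3, 44.8 and 45.4 TPM in pre_SC, and Rrm2 at 44.2, 26.1 and 26.7 TPM in post_SC and 47.6, 49.7 and 55.8 TPM in pre_SC. Neither subunit overlapped between the groups, and post_SC 1 was the highest post_SC library for both. Tyms, which makes thymidylate, was the other gene above 0, at 56.2, 42.2 and 33.3 TPM in post_SC and 36.2, 35.2 and 33.4 TPM in pre_SC, and its log2 difference of 0.29 ± 0.19 (SE, adjusted p = 0.353 by limma) was not called.

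No repair or checkpoint gene was called, and all 8 estimates were below 0. Exo1, a nuclease that resects broken ends, stood at 4.92, 3.52 and 3.204 TPM in post_SC and 7.81, 7.11 and 6.49 TPM in pre_SC, without overlap, a log2 difference of −0.75 ± 0.20 (SE, adjusted p = 0.0665 by limma). Fancd2, a Fanconi anemia protein that guards stalled forks, had −0.75 ± 0.25 (SE, adjusted p = 0.110 by limma), and Rad54l, which remodels recombining DNA, had −0.71 ± 0.29 (SE, adjusted p = 0.161 by limma). Brca1, Brca2 and the helicase gene Blm, all of homologous recombination, were nearer to 0, at −0.35 ± 0.18, −0.11 ± 0.23 and −0.25 ± 0.29 (SE). Msh6, which recognises mismatched bases, stood at 26.3, 22.5 and 29.4 TPM in post_SC and 34.4, 27.05 and 28.3 TPM in pre_SC, with overlap and a log2 difference of −0.19 ± 0.16 (SE).

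The calls in fat pad tumors rested on all 3 pre_SC libraries: without pre_SC 1, 2 or 3 no member was called, and the calls over all genes were then between 27 and 66 higher and between 51 and 127 lower, against 358 higher and 573 lower with all libraries. Without post_SC 1, 2 or 3 the members called lower were 6, 2 and 3, beside 267 of 13405, 532 of 13227 and 443 of 13418 genes tested. The call of Mcm10 was lost without any 1 of the 6 libraries, with limma adjusted p of 0.0574 to 0.161. Genes on the opposite strand overlap Rfc5 (Wsb2), Mcm7 (Cops6 and Ap4m1), Rfc2 (Lat2), Cdc45 (Ufd1), Tk1 (Afmid) and Orc6 (Vps35), and the counting is not stated to use strand, so reads of such pairs may not be told apart. Endothelial genes moved with the group: all 6 were above 0 and 3 rose (Cldn5, Emcn and Cdh5), and their summed TPM was 191 to 235 in post_SC and 77.8 to 117 in pre_SC. Of the 12 epithelium genes none was called and 8 were below 0, with sums of 5575 to 6463 TPM in post_SC and 5575 to 6137 TPM in pre_SC, and the part of these cell types in the replication genes' change was not tested.

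**Figure D2:**
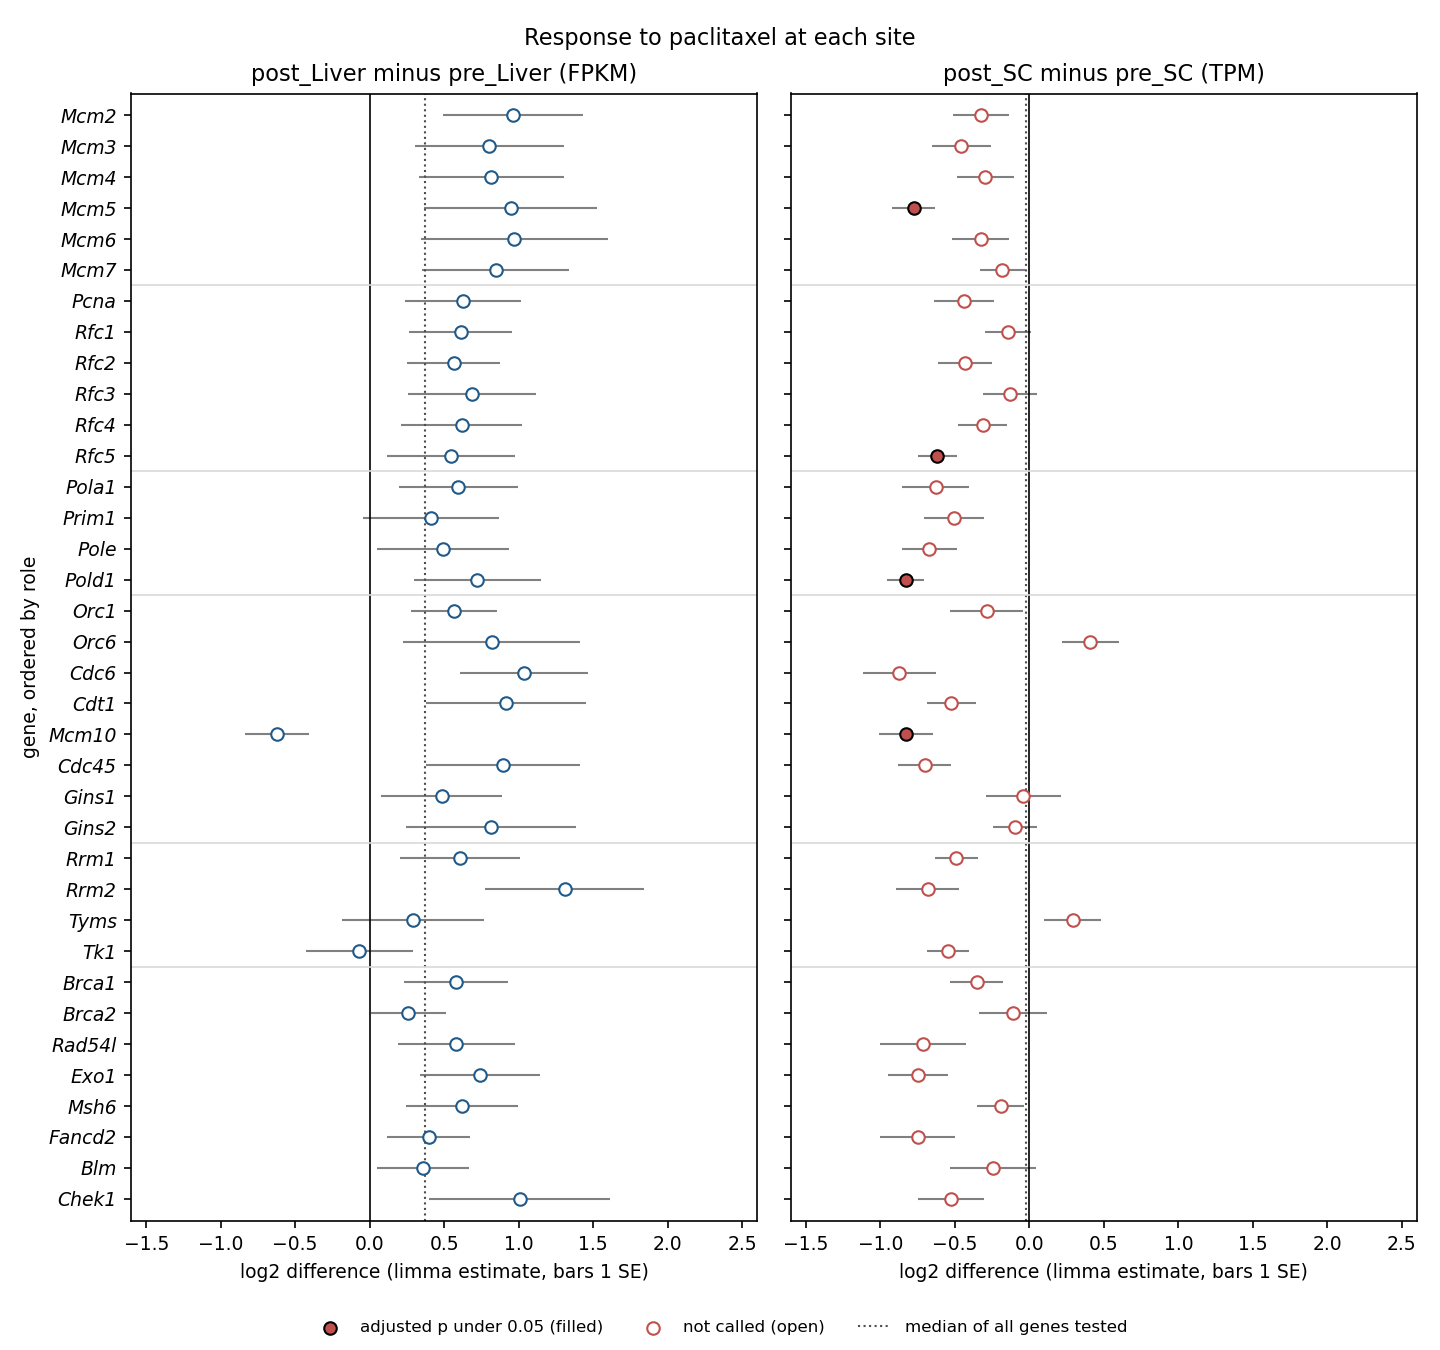
limma log2 difference of each gene, with bars of 1 SE, for post_Liver minus pre_Liver (left, FPKM) and post_SC minus pre_SC (right, TPM). Filled points have an adjusted p under 0.05 and the dotted line is the median of all genes tested, 0.37 on the left and −0.03 on the right. On the right 34 of 36 points lie below 0 and 4 are filled, and on the left 34 lie above 0 and none is filled.

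The second comparison asked the same of liver tumors. No replication or repair gene was called in post_Liver against pre_Liver, while limma called 3.64% of all 13008 genes tested, 2.24% higher and 1.41% lower. The estimates were above 0 for 34 of the 36, against 76.3% of all genes, with a median of 0.62 against 0.37 over all genes. At an unadjusted p under 0.05 there were 3, with Rrm2 and Cdc6 higher (22.2% of all genes) and Mcm10 lower (9.5% of all genes). Rescaling by the median of ratios brought the median of all genes to 0.03 and that of the members to 0.32, so the members' median stood 0.25 above that of all genes in the main scaling and 0.29 above it when rescaled. Without pre_Liver 4 and 5, a setting added after the data were seen, the members' median was 0.06, which was 0.06 below that of all genes, and 26 of 36 were above 0. Without pre_Liver 2 there were 4 members called higher, beside 2510 of all 12997 genes tested. With array quality weights, which give noisier libraries less weight, 25 were called higher and 1 lower, beside 5497 and 1760 of all 13008 genes.

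Mcm2, whose values per library are given above, had the smallest p of the helicase genes and averaged 41.6 ± 14.2 TPM in post_Liver and 24.3 ± 17.9 TPM in pre_Liver (SD, n = 5 each), a log2 difference of 0.96 ± 0.47 (SE, adjusted p = 0.177 by limma). The 6 helicase genes had estimates of 0.80 to 0.97, and those of the clamp and loader lay between 0.55 and 0.69. Rfc2 stood at 84.96, 88.2, 89.2, 56.3 and 64.98 TPM in post_Liver and 64.8, 93.5, 52.7, 27.9 and 36.1 TPM in pre_Liver. The groups overlapped, with pre_Liver 2 above every post_Liver library, and its log2 difference was 0.56 ± 0.31 (SE, adjusted p = 0.219 by limma). Pold1 stood at 30.5, 24.4, 24.1, 14.7 and 21.9 TPM in post_Liver and 22.7, 32.1, 12.7, 5.22 and 6.28 TPM in pre_Liver, again with pre_Liver 2 highest, and its log2 difference was 0.72 ± 0.43 (SE, adjusted p = 0.238 by limma).

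Rrm2, the ribonucleotide reductase subunit that limits deoxynucleotide supply in S phase, had the highest estimate of the 36. It stood at 101, 58.4, 51.5, 47.8 and 34.8 TPM in post_Liver and 36.02, 59.6, 26.4, 6.25 and 10.1 TPM in pre_Liver, and pre_Liver 1 and 2 lay within the range of post_Liver. Its log2 difference was 1.31 ± 0.53 (SE, adjusted p = 0.132 by limma), and that of Tyms was 0.29 ± 0.48 (SE). Tk1 had a negative estimate, −0.07 ± 0.36 (SE, adjusted p = 0.884 by limma), at 81.1, 64.3, 67.03, 41.8 and 49.9 TPM in post_Liver and 77.8, 121, 75.3, 28.5 and 45.4 TPM in pre_Liver, with wide overlap. Cdc6 stood at 24.2, 10.9, 10.01, 9.83 and 8.32 TPM in post_Liver and 8.05, 12.4, 5.32, 1.15 and 2.24 TPM in pre_Liver, with post_Liver 1 above all others, and had a log2 difference of 1.04 ± 0.43 (SE, adjusted p = 0.136 by limma). Exo1 had the smallest p of the repair genes and stood at 10.7, 6.14, 7.63, 4.07 and 4.601 TPM in post_Liver and 4.603, 9.17, 3.499, 0.435 and 1.21 TPM in pre_Liver, with overlap and a log2 difference of 0.74 ± 0.40 (SE, adjusted p = 0.211 by limma). The other 7 repair and checkpoint genes had estimates of 0.26 (Brca2) to 1.01 (Chek1).

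Mcm10 was the exception in liver tumors. It stood at 17.9, 14.3, 12.9, 7.36 and 9.24 TPM in post_Liver and 17.3, 18.6, 23.2, 18.6 and 19.2 TPM in pre_Liver. On the FPKM scale of the test every post_Liver library was below every pre_Liver library, the only member without overlap, against 1.47% of all genes without overlap and lower and 5.16% without overlap and higher, while on the TPM scale of the levels post_Liver 1 lay above pre_Liver 1. Its log2 difference was −0.62 ± 0.21 (SE, adjusted p = 0.102 by limma), which was not called. Library pre_Liver 4, the lowest liver library for 32 of 36 members, was level with pre_Liver 2 in Mcm10. No other annotated gene overlaps it.

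**Figure D3:**
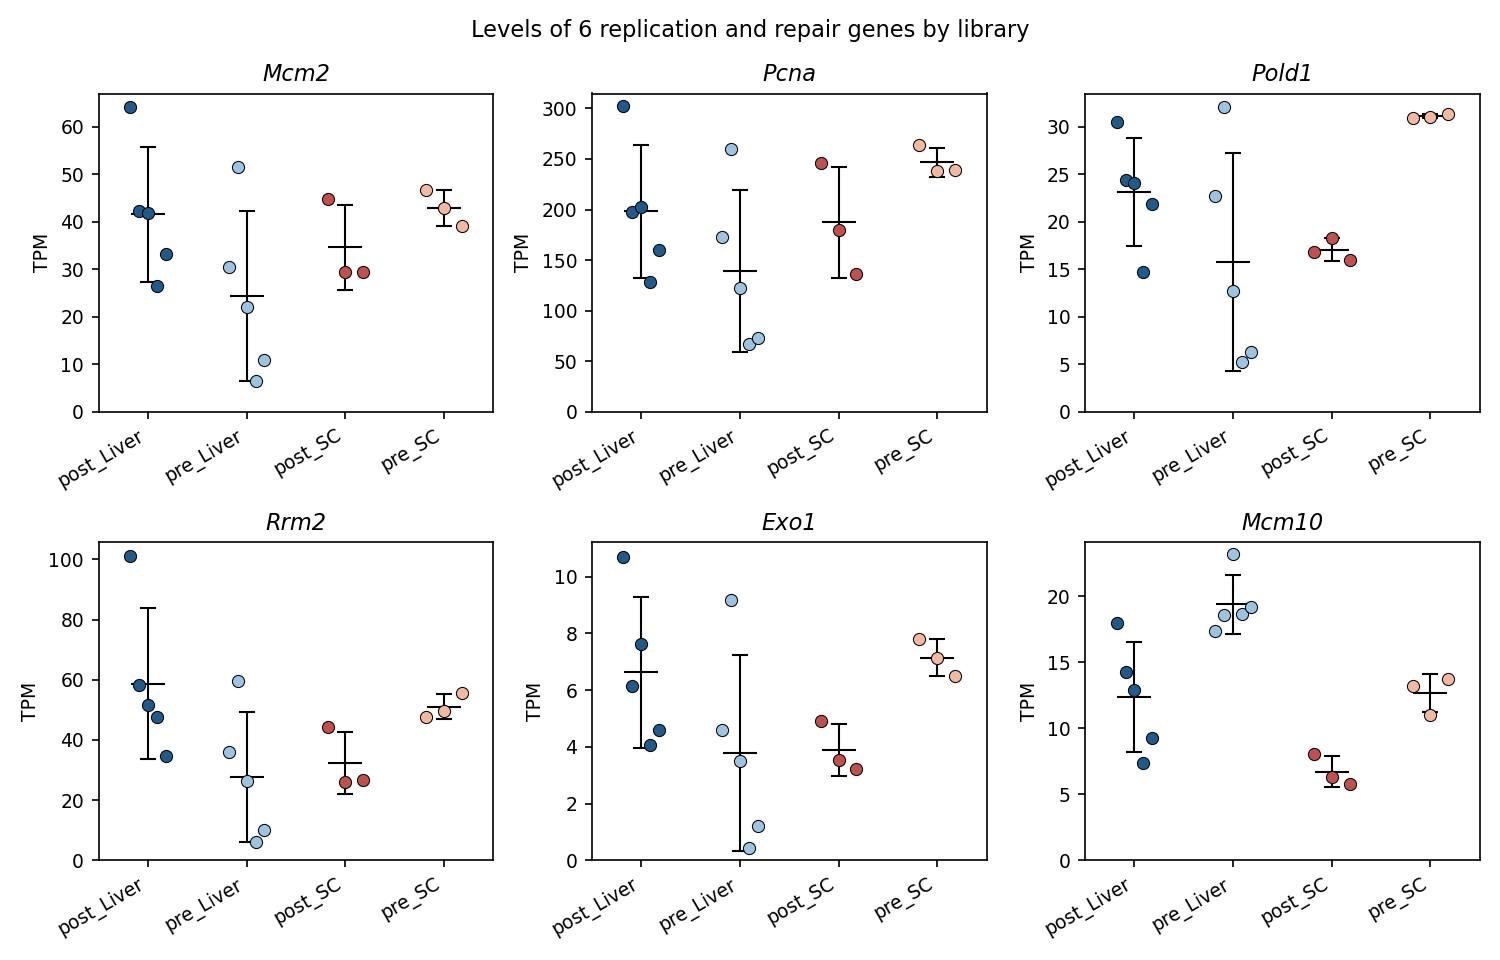
TPM over the shared genes of 6 genes, 1 from each class, in each library (points) with the group mean and SD (bars), for post_Liver, pre_Liver (n = 5 each), post_SC and pre_SC (n = 3 each). Mcm2, Pcna, Pold1, Rrm2 and Exo1 have 2 pre_Liver libraries at the bottom of the panel, and Mcm10 has pre_Liver highest and post_SC lowest.

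Other cell types moved with the liver groups. All 19 hepatocyte genes tested were below 0 with a median of −2.21 and none called, and all 12 epithelium genes were above 0 with a median of 1.30 and none called. Genes of neutrophils rose for 9 of 10, and those of their precursors in bone marrow (Mpo, Elane, Prtn3, Ctsg) for 4 of 4, with summed precursor TPM of 499 to 2375 in post_Liver and 33.2 to 220.2 in pre_Liver, against 1.32 to 2.398 in post_SC and 0.718 to 12.9 in pre_SC. Summed TPM of the 36 members was 765 to 1839 in post_Liver and 318 to 1786 in pre_Liver, against 1077 to 1461 in post_SC and 1465 to 1672 in pre_SC. Divided by the epithelium sum of the same library, it was 0.282 to 0.517 in post_Liver and 0.373 to 0.487 in pre_Liver, and 0.167 to 0.262 in post_SC and 0.246 to 0.284 in pre_SC. Post and pre groups thus overlapped at both sites, while every liver ratio lay above every fat pad ratio of the same treatment. The part of these cells in the levels of the members was not tested.

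**Figure D4:**
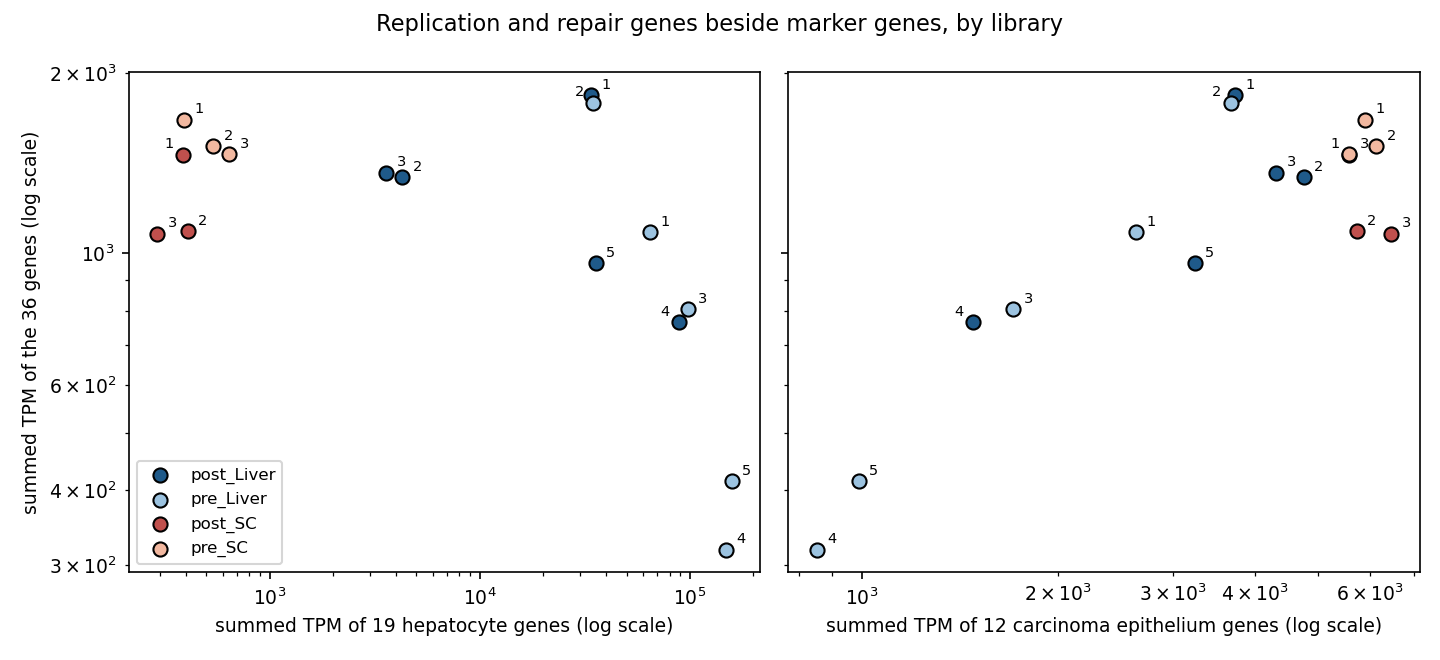
Summed TPM of the 36 genes in each library (y axis) against summed TPM of 19 hepatocyte genes (left) and of 12 carcinoma epithelium genes (right), all axes on log scales, with numbers giving the replicate. Liver libraries with the lowest epithelium sums, pre_Liver 4 and 5, have the lowest member sums (318 and 415 TPM), and post_Liver 1 and pre_Liver 2 the highest (1839 and 1786 TPM).

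The third comparison set liver tumors beside fat pad tumors without treatment, in a deposited table from which a constant per gene and batch was removed. Of the 36 members 35 stood lower in pre_Liver, as did 70.5% of all 13727 genes tested. Of those genes limma called 48.9%, 33.5% lower and 15.4% higher. Of the members 2 were lower by the test, Cdt1 and Msh6, and 1 was higher, Mcm10. At an unadjusted p under 0.05 there were 10 lower and 1 higher, against 43.3% and 17.3% of all genes. The members' median log2 difference was −1.08, against −0.52 over all genes. When the libraries were rescaled by the median of ratios, the medians were −0.58 and −0.01, so the members stood 0.56 below all genes in the main scaling and 0.57 below them when rescaled. That rescaling moved the share of higher genes among all calls to 56.4%, against 31.4% in the main scaling, left Mcm10 as the 1 member called, and turned Gins1, Rfc2 and Tyms to just above 0.

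Cdt1 (chr8:122568015-122573554), which loads the MCM ring, stood at 42.1, 66.9, 25.5, 6.89 and 10.5 TPM in pre_Liver and 84.7, 76.2 and 76.9 TPM in pre_SC, with every liver library below every fat pad library. Its log2 difference was −1.79 ± 0.66 (SE, adjusted p = 0.0495 by limma). Msh6 (chr17:87975062-87990892) stood at 15.3, 27.4, 12.8, 6.31 and 6.599 TPM in pre_Liver and 34.4, 27.05 and 28.3 TPM in pre_SC, with pre_Liver 2 inside the fat pad range, and its log2 difference was −1.27 ± 0.44 (SE, adjusted p = 0.0413 by limma). Cdt1 shares its locus with the protein-coding gene Gm20388 on the same strand, and Msh6 with Fbxo11 on the other while the counting is not stated to use strand, so reads of these pairs may not be told apart. Mcm10 was higher in pre_Liver, at the values given above against 13.2, 11.02 and 13.7 TPM in pre_SC, a log2 difference of 0.56 ± 0.17 (SE, adjusted p = 0.0284 by limma), and the groups did not overlap.

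In the other classes the genes with the smallest p were not called. Mcm7 stood at 70.8, 122, 48.02, 17.9 and 23.8 TPM in pre_Liver and 119.6, 118 and 99.1 TPM in pre_SC, a log2 difference of −1.31 ± 0.57 (SE, adjusted p = 0.0789 by limma). Rfc1 stood at 17.9, 34.7, 16.6, 10.8 and 9.99 TPM in pre_Liver and 39.1, 29.5 and 32.3 TPM in pre_SC, a log2 difference of −1.01 ± 0.37 (SE, adjusted p = 0.0502 by limma). For both, pre_Liver 2 reached the fat pad libraries and pre_Liver 4 and 5 were lowest. Pola1 stood at 6.65, 16.2, 5.75, 3.03 and 2.75 TPM in pre_Liver and 18.4, 11.4 and 16.02 TPM in pre_SC, and its log2 difference was −1.27 ± 0.48 (SE, adjusted p = 0.0538 by limma). Rrm1 stood at 33.9, 57.3, 21.3, 12.9 and 11.7 TPM in pre_Liver and 52.3, 44.8 and 45.4 TPM in pre_SC, and its log2 difference was −1.03 ± 0.48 (SE, adjusted p = 0.0973 by limma). Again pre_Liver 2 alone stood with or above the fat pad libraries.

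Library pre_Liver 2 decided how many members passed the test: without it 31 were called lower, against 2 with it, and 7134 of 13696 genes were called lower over the whole table. Within the batch that holds both sites (pre_Liver 1 to 3 and pre_SC) no member was called lower, Mcm10 was the 1 called higher, and the members' median was −0.44, which was 0.13 below that of all genes. Leaving out pre_Liver 3, 4 or 5, or any pre_SC library, ended all 3 calls, and both lower calls ended under the median of ratios and without a filter on low values. In the same comparison 11 of 12 epithelium genes were lower and 18 of 19 hepatocyte genes higher in pre_Liver by the test, and their part in the members' levels was not tested. Divided by the epithelium sum, the members' sum went the other way, at 0.373 to 0.487 in pre_Liver and 0.246 to 0.284 in pre_SC.

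The fourth comparison tested whether liver and fat pad tumors responded differently, as the liver response minus the fat pad response in 1 fit of all 16 libraries. No member was called, while limma called 2.98% of all 13875 genes, 2.19% higher and 0.786% lower, and 9 members were higher at an unadjusted p under 0.05, against 18.6% of all genes higher and 6.46% lower. All 36 estimates were above 0, against 71.1% of all genes, with a median of 1.10 against 0.38 over all genes, but Mcm10 and Tyms were below 0 under each rescaling, at −0.29 and −0.42 with the median of ratios. The highest estimates were those of Cdc6, at 2.07 ± 0.70 (SE, adjusted p = 0.104 by limma), of Rrm2, at 2.04 ± 0.77 (SE, adjusted p = 0.132 by limma), and of Mcm5, at 1.76 ± 0.82 (SE, adjusted p = 0.196 by limma). Exo1 had 1.68 ± 0.69 (SE, adjusted p = 0.157 by limma) and Pold1 1.61 ± 0.62 (SE, adjusted p = 0.138 by limma), and the lowest were Tyms at 0.02 ± 0.67 and Mcm10 at 0.16 ± 0.33 (SE). The members' median stood 0.71 above that of all genes in the main scaling, 0.73 above it with the median of ratios, and 0.35 above it without pre_Liver 4 and 5. Without pre_Liver 2 there were 11 members called higher, beside 2003 of all 13878 genes tested. With array quality weights there were 27, beside 4977 of all 13875 genes. In the same contrast 7 of 10 neutrophil genes and 4 of 4 of their precursors were called higher and 1 of 6 endothelial genes lower. All 19 hepatocyte genes tested were below 0 and all 12 epithelium genes above it, with none called. Their part in the members' values was not tested.

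**Figure D5:**
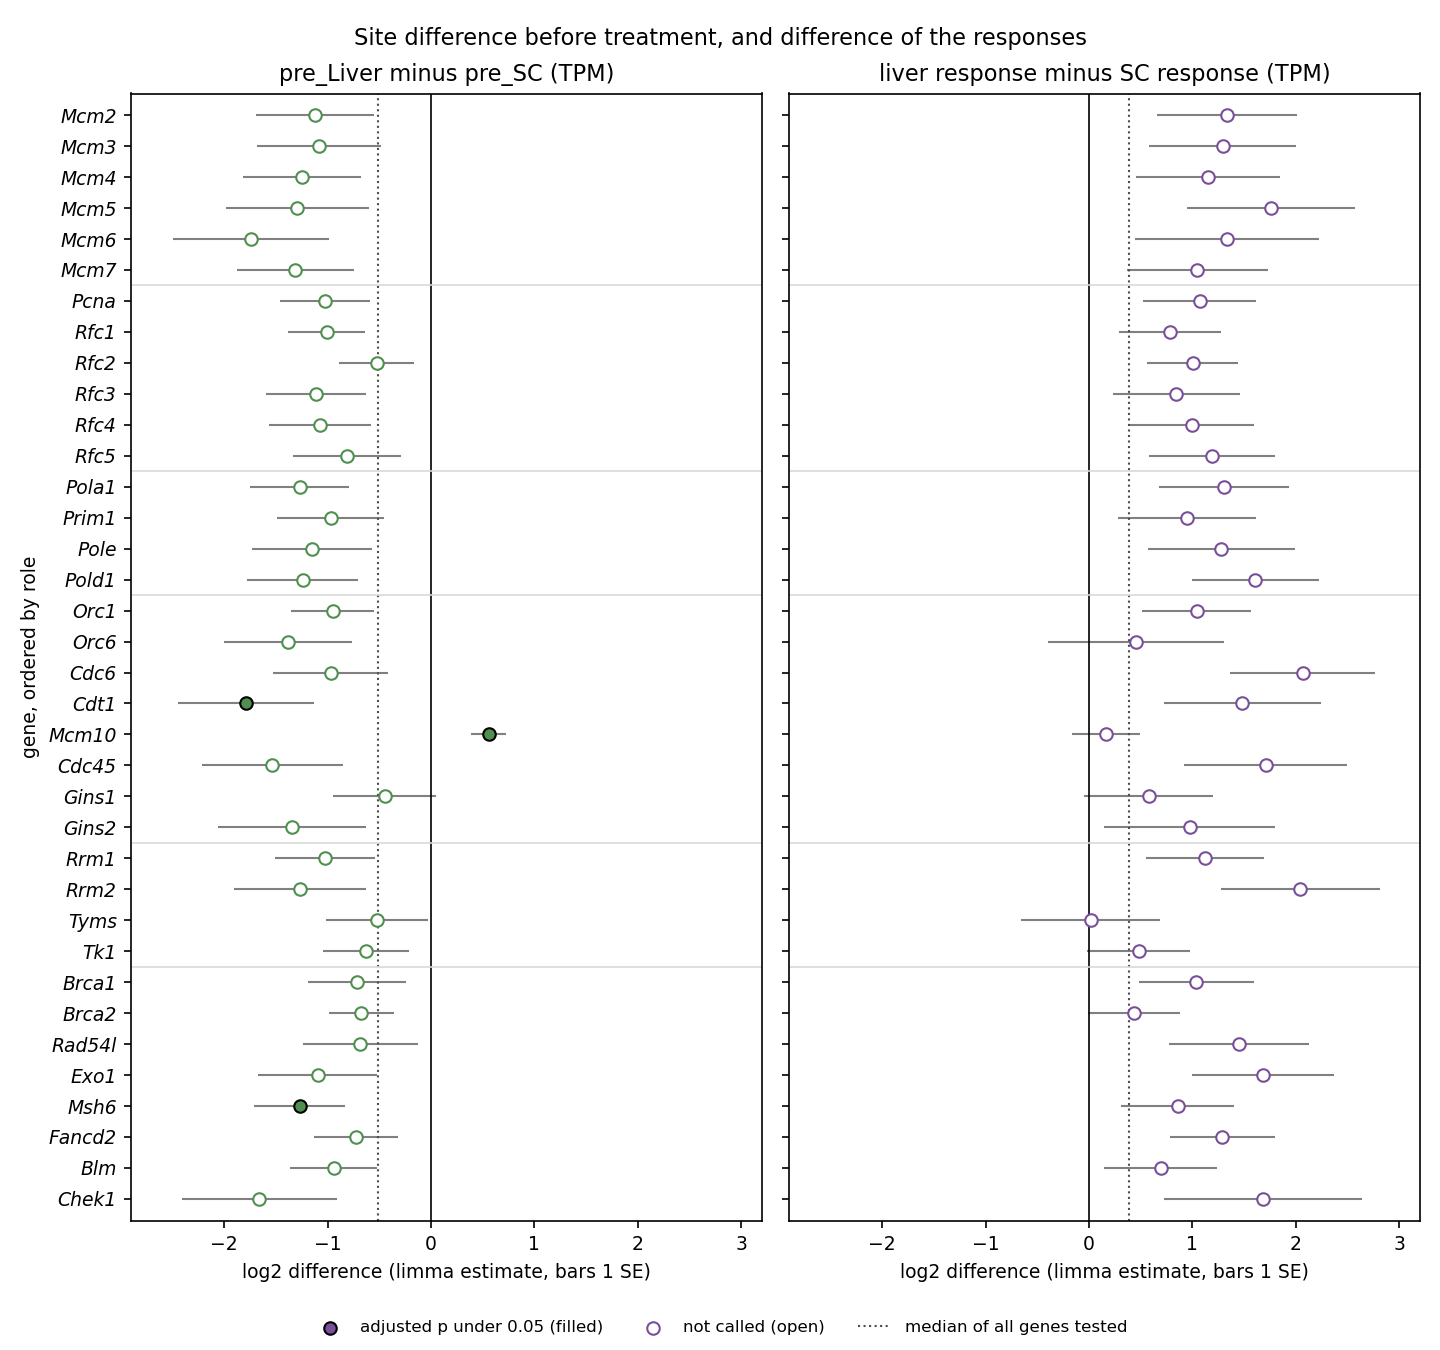
limma log2 difference of each gene, with bars of 1 SE, for pre_Liver minus pre_SC (left) and for the liver response minus the fat pad response (right), both in TPM. Filled points have an adjusted p under 0.05 and the dotted line is the median of all genes tested, −0.52 on the left and 0.38 on the right. On the left Cdt1 and Msh6 are filled below 0 and Mcm10 above it, and on the right all 36 points lie above 0 and none is filled.

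Other genes of the same pathways were counted from lists set by function, also with earlier results of these data known. Of 39 other replication fork genes 38 were tested. In fat pad tumors 3 of the 38 fell (Pold2, Chaf1a and Lig1), 30 of the 38 were below 0, and their median was −0.26. Of all genes tested there, 4.29% were called lower and 2.68% higher, 52.7% were below 0, and the median was −0.03. These shares stand beside each fat pad count that follows. Pold2, the partner of Pold1, fell by 0.65 ± 0.11 (log2, SE, adjusted p = 0.0222 by limma), Lig1, the ligase that seals nicks, by 0.77 (log2, adjusted p = 0.0313 by limma), and Chaf1a, a chaperone that lays histones on new DNA, by 0.72 (log2, adjusted p = 0.0297 by limma). Of 23 other nucleotide supply genes 6 fell and none rose. The 3 with the smallest p were Impdh2 of guanine nucleotide synthesis, at −0.84 ± 0.12 (SE, adjusted p = 0.0152 by limma), Umps of pyrimidine synthesis, at −0.86 ± 0.14 (SE, adjusted p = 0.0210 by limma), and Cad, which starts that path, at −0.78 ± 0.15 (SE, adjusted p = 0.0296 by limma). In homologous recombination 1 of 27 other genes fell, Rad54b, at −0.91 ± 0.19 (SE, adjusted p = 0.0357 by limma), and in Fanconi repair, mismatch repair and end joining none of 13, 6 and 12 genes was called. In control of the G1/S step 3 of 24 genes fell, Ccnd1 (cyclin D1), E2f1 and E2f4, at −0.74 ± 0.15, −0.65 ± 0.14 and −0.43 ± 0.10 (SE).

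In liver tumors these lists had 2 calls, Shmt1 in nucleotide supply and Ccnd3 in G1/S control. Of all genes tested 3.64% were called, 2.24% higher and 1.41% lower. Shmt1, a folate enzyme that feeds thymidylate synthesis and is also made by liver, fell to 40.3, 23.7, 23.2, 52.8 and 32.4 TPM in post_Liver, against 90.7, 55.03, 128, 161 and 155 TPM in pre_Liver, a log2 difference of −1.69 ± 0.32 (SE, adjusted p = 0.0216 by limma). Ccnd3, which encodes cyclin D3, stood at 206, 196, 193, 203 and 131 TPM in post_Liver and 104, 99.5, 75.01, 61.1 and 59.5 TPM in pre_Liver, without overlap, and rose by 1.22 ± 0.22 (SE, adjusted p = 0.0188 by limma) on the log2 scale. No other fork, recombination, Fanconi, mismatch or end-joining gene was called in liver tumors by limma. At an unadjusted p under 0.05 there were 2, 1, 2, 0 and 1 of them, all higher, of 38, 27, 13, 6 and 11 tested. At the same threshold 10 of 24 G1/S genes were higher and none lower, and of 23 nucleotide supply genes 4 were higher and 2 lower. Of all genes tested 22.2% were higher and 9.5% lower at that threshold. Before treatment 5 of 38 other fork genes were called lower in pre_Liver, as were 7 of 24 G1/S genes, 6 of 27 recombination genes (1 higher) and 7 of 23 nucleotide supply genes (3 higher). Of all genes tested 33.5% were called lower and 15.4% higher. Top2a, the topoisomerase of dividing cells, fell in fat pad tumors by 1.19 ± 0.20 (log2, SE, adjusted p = 0.0221 by limma), and Mki67, the gene of the Ki-67 antigen, had −0.56 ± 0.24 (SE, adjusted p = 0.188 by limma). In liver tumors Top2a had 0.85 ± 0.66 (SE, adjusted p = 0.335 by limma), Mki67 1.20 ± 0.54 (SE, adjusted p = 0.158 by limma) and Cdkn1a, which encodes the cyclin-dependent kinase inhibitor p21, 1.02 ± 0.40 (SE, adjusted p = 0.124 by limma), none of them called. Alb, the albumin gene of hepatocytes, had −2.69 ± 1.03 (SE, adjusted p = 0.121 by limma) and Epcam, of carcinoma cells, 1.67 ± 0.88 (SE, adjusted p = 0.200 by limma) in the same comparison.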

How the data were processed

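Poly(A) RNA of 16 tumor libraries was measured in 3 deposited tables whose headers name no unit, so units were read from the values. The liver table holds FPKM as deposited (column sums 511645 to 547765), and the subcutaneous table holds TPM as deposited (columns sum to 1000000). The table of untreated tumors, from the authors, holds a score: a TPM to which a constant was added, gene by gene within a batch, with 2382 genes below 0. That constant was removed for 17398 of 17499 genes before the site comparison. Tools and builds in the submitters' processing notes are fastp, StringTie and GRCm38/mm10, without versions or roles, and counting is not given in the sources used here. Genes listed under a date in place of a name were not used (22 among subcutaneous, 24 among untreated rows).

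Each of 4 comparisons was fitted with limma 3.58.1 (R 4.3.3; eBayes with trend) on log2(value + 1) over genes with a mean of at least 1, and p-values were adjusted by Benjamini-Hochberg over all genes tested, with a threshold of 0.05. Fold changes on this scale understate those of low genes. All 36 genes passed the filter in each fit. The difference of responses used TPM over the 17426 genes shared by the subcutaneous and liver tables. Post_Liver against post_SC was not tested, since no table holds both. The fit was tested on simulated data. Python 3.11.15 (NumPy 2.4.6, pandas 2.3.3, matplotlib 3.10.9) was used for tables and figures. Coordinates are from GENCODE M21 (GRCm38) and promoters from RefSeq (GRCm38.p6). Members and lists were chosen with earlier results of these data known. Values in every library are given for Mcm2, Pcna and, per class, the gene with the smallest p in each of the 2 responses and the site comparison, and for Cdc6, Orc6, Tyms and others where a result turned on them. Depth is unknown, as no counts are given. Replicate numbers do not pair the libraries. Alternatives were another pseudocount (0.1), no filter or a mean of at least 5, 3 rescalings, array quality weights and a replicate block. Others were TPM over the shared genes, the untreated table as deposited with values below 0 set to 0, 1 batch alone and each library left out. In a further setting post_Liver 2 and 3, whose values lay close together, were averaged. Their hepatocyte sums were 4287 and 3595 TPM, against 33835 TPM or more in the other post_Liver libraries.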

Additional observations from a re-analysis of the deposited data

Results flagged for a closer look

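Mcm10 stood apart within pre_Liver, where its highest library, pre_Liver 3, had 12.47 FPKM, far above the nearest of the other 4 relative to the group's range. The mark was sought for all 36 genes in both liver groups, and this was the only one. About 1 in 20 groups would carry such a mark by chance, so 1 mark is no more than that rate would give.

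The responses of the sites differed by the interaction test for 2 of 24 genes of G1/S control. No member and no gene of the other pathway lists was called, while limma called 2.98% of all 13875 genes tested, 2.19% higher and 0.786% lower. E2f2, an activating E2F factor, had a liver response that exceeded the fat pad response by 1.79 ± 0.41 (SE, adjusted p = 0.0344 by limma) on the log2 scale, and Ccnd3, which encodes cyclin D3, by 1.37 ± 0.30 (SE, adjusted p = 0.0280 by limma). E2f2 alone had log2 differences of 1.00 ± 0.25 (SE, adjusted p = 0.0515 by limma) in liver tumors and −0.67 ± 0.26 (SE, adjusted p = 0.147 by limma) in fat pad tumors, and Ccnd3 had 1.22 ± 0.22 (SE, adjusted p = 0.0188 by limma) and −0.14 ± 0.14 (SE, adjusted p = 0.561 by limma). In the interaction test genes of neutrophils were called higher for 7 of 10 and of their precursors for 4 of 4. All 19 hepatocyte genes tested were below 0, and 1 of 6 endothelial genes was called lower. Their part in these differences was not tested.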

How the results depend on the processing

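Of 2930 values of the 36 genes under the alternatives, 2670 kept their direction and side of the threshold, 148 passed it newly, 51 no longer passed it and 61 changed sign. Most of these values belong to genes that the main fit did not call, and only its calls could be lost. When 1 library was left out, the fat pad calls held in 3 of 6 settings for Mcm5 and Pold1, 1 for Rfc5 and 0 for Mcm10. Between sites Cdt1, Msh6 and Mcm10 each held in 2 of 8. In post_SC against pre_SC the number of members called lower was 0 to 6 when 1 library was left out (at 6, 267 of all 13405 genes). It was 4 in the main fit (573 of all 13366 genes), and the members' median without 1 library was −0.59 to −0.36. The number called lower was 1 with the replicate block (221 of all 13366 genes), and array quality weights gave a median of −0.33. In post_Liver against pre_Liver array quality weights called 25 members higher and 1 lower (5497 and 1760 of all 13008 genes), the replicate block 8 higher (2435 of all genes), and leaving out 1 library 0 to 4 higher (at 4, 2510 of all 12997 genes). In pre_Liver against pre_SC, where 2 were called lower and 1 higher, the members called lower were 1 with a pseudocount of 0.1, 0 with no filter on low values, 0 with the median of ratios, 0 with the rescaling without liver genes, 7 with quantile normalization (4555 of all 13727 genes), 33 with array quality weights (8284 of all 13727 genes), 0 within the batch that holds both sites (2826 of all 13807 genes) and 1 with TPM over the shared genes. Leaving out 1 library gave 0 to 31 lower (at 31, 7134 of all 13696 genes) and 0 to 1 higher. In the difference of the responses array quality weights called 27 higher (4977 of all 13875 genes), and leaving out 1 library called 0 to 11 (at 11, 2003 of all 13878 genes). The cause was not tested for any of these.

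The replicate numbers gave correlations between same-numbered libraries of −0.16 to 0.13 in fat pad and −0.12 to 0.75 in liver tumors, so the numbers were not taken to pair libraries. The replicate block kept only the replicate numbers that every group of a fit holds. It therefore left out pre_Liver 4 and 5 in pre_Liver against pre_SC. In the difference of the responses it left out post_Liver 4 and 5 as well. With the block, pre_Liver against pre_SC had 1 member called lower and 0 higher. Gins1 was 0.18, Rad54l 0.00115 and Tyms 0.17 there, the same estimates as within the batch that holds both sites. Tyms was −0.23 in the difference of the responses.

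Signs changed for genes near 0 in the main fit and also for genes far from it. Between sites the main estimate was −0.67 or lower for every repair gene and −0.52 or lower for every nucleotide supply gene. In the liver response it was 0.80 or higher for every helicase gene. In fat pad tumors Gins1 was 0.022 with quantile normalization and 0.094 with array quality weights. When 1 library was left out, Gins1 ran from −0.23 to 0.20, Brca2 from −0.23 to 0.060, Blm from −0.49 to 0.0037 and Rfc3 from −0.24 to 0.072 in fat pad tumors, Tk1 from −0.35 to 0.16 in liver tumors and Tyms from −0.27 to 0.25 in the difference of the responses. In liver tumors Tyms was −0.075 with the median of ratios, −0.034 without liver genes, −0.017 with quantile normalization and −0.23 with array quality weights. Between sites the median of ratios gave Gins1 0.040, Rfc2 0.012 and Tyms 0.00377, the rescaling without liver genes Gins1 0.016, and array quality weights Tyms 0.00638. The untreated table as deposited, with values below 0 set to 0, gave Gins1 0.31, Rad54l 0.012 and Tyms 0.27. The batch that holds both sites gave Gins1 0.18, Rad54l 0.00115 and Tyms 0.17. In the difference of the responses Mcm10 and Tyms were −0.29 and −0.42 with the median of ratios, −0.21 and −0.34 without liver genes, and −0.35 and −0.38 with quantile normalization. Tyms was also −0.61 with array quality weights and −0.17 with post_Liver 2 and 3 averaged.

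For the liver response and the difference of the responses, 2 settings that leave out 2 libraries were chosen after seeing the data. Without pre_Liver 4 and 5 the liver response was −0.030 for Blm, −0.10 for Gins1, −0.048 for Gins2, −0.00359 for Mcm6, −0.11 for Pole, −0.21 for Prim1, −0.11 for Rfc5 and −0.38 for Tyms, and the difference of the responses was −0.052 for Gins1, −0.38 for Orc6, −0.035 for Tk1 and −0.67 for Tyms. Without post_Liver 2 and 3, the libraries lowest in Alb, Tyms was −0.21 in liver tumors, and in the difference of the responses Orc6 was −0.069 and Tyms −0.47. Since no counts are given, the error that depth adds to low genes such as Exo1, Orc1 and Fancd2 is unknown.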

Other observations

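Folate enzymes moved with the groups at both sites. In fat pad tumors Shmt1 had a log2 difference of −0.83 ± 0.16 (SE, adjusted p = 0.0301 by limma), Mthfd1 −0.79 ± 0.19 (SE, adjusted p = 0.0486 by limma) and Mthfd2 −1.18 ± 0.23 (SE, adjusted p = 0.0313 by limma), and all 3 fell. Shmt1 stood at 12.8, 12.9 and 11.5 TPM in post_SC and 27.1, 20.1 and 21.9 TPM in pre_SC, without overlap. Before treatment Shmt1 was higher in pre_Liver than in pre_SC by 2.20 ± 0.35 (SE, adjusted p = 0.00219 by limma) on the log2 scale, beside the hepatocyte genes, whose part in it was not tested.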
